A study of Aliger gigas with 7 samples.

Results

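The cytosolic ribosomal proteins are the protein parts of the ribosomes that translate nuclear messenger RNA in the cytoplasm. In the table of ovary expression of the queen conch, Aliger gigas (named Strombus gigas in the series title), a large marine snail, 74 of 4328 gene titles name one. They were chosen by the words of the title alone: ribosomal protein followed by S, L or P and a number, or by large or small, or a 40S or 60S ribosomal protein, leaving out titles with mitochondrial, kinase, 30S or 50S. Of the 74 titles, 30 name proteins of the small subunit, 40 of the large subunit and 4 of the acidic stalk of the large subunit. They stand for 67 different names, of which 7 are carried by 2 titles each. Ovary RNA of 7 wild, mature conchs was hybridised to single-colour Agilent arrays, 1 animal per array, and all animals were collected on the same day without any treatment. The nearshore group, from Tingler Island, where reproduction is impaired, held 3 animals. Of these, NM3 was described as an apparent imposex female, a female that bears male sexual characters, and the others, NF1 and NF3, as normal females. The offshore group, from Pelican Shoal, where conchs reproduce normally, held 4 normal females, OF1 to OF4.

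Each ribosome is built from ribosomal RNA and ribosomal proteins, nearly all present in 1 copy per particle. The small subunit binds messenger RNA and reads codons, and the large subunit joins amino acids and holds the tunnel through which the new chain leaves. A growing oocyte makes and stores ribosomes for the embryo, so ribosomal protein messages are usually abundant in ovaries. In vertebrates many of these messages share a signal at their start that lets the cell raise or lower the translation of all of them together.

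All values below are log2 signals from the deposited table, and a difference of 1 means a 2-fold difference. A title is the gene name that the table gives to a conch sequence, and whether it is the conch orthologue of that gene is not known. The signal of a title depends on its probe as well as on its transcript, so signals of different titles say nothing of which transcript was more abundant. The mean signal of an array ran from 5.83 in NM3 to 5.89 in OF4 over all titles, and the 74 members had mean signals between 1.73 and 17.06, with a median of 14.72. Background and detection were not given, so it is not known which dim members lie above background. NM3 lacked a value for 5 members (6.76%), L3, L7, L10, L19 and L36, against 45 of all titles (1.04%), and OF3 lacked L24. Tests for the 5 rest on 2 nearshore animals. Digestive enzyme titles set NM3, OF1 and OF3 apart from the other animals of both sites: Cathepsin L, a lysosomal and digestive protease, was at 12.30, 11.02 and 15.57 in NF1, NF3 and NM3 and at 15.66, 10.14, 15.33 and 9.09 in OF1 to OF4. These 3 animals lay above the other 4 in 7 of 29 titles matched by digestive gland words, Amylase, Alpha 1A; Salivary among them. Each site gave 1 collection, and site and collection cannot be told apart. In whole ovary, fewer cells that express a gene and less RNA per cell cannot be told apart either.

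Of the 74 members, 7 fell nearshore (9.46%) at an adjusted p under 0.05 in limma, against 5.34% of all titles, and 0 rose, against 3.9% of all titles. At an unadjusted p under 0.05, 22 members (29.7%) were lower nearshore, against 14.5% of all titles. Only 1 member (1.35%), L23A, was higher at that level, against 11.6% of all titles, and the ordinary linear model without moderation also gave 0 rises. The nearshore and offshore values did not overlap in 31 members, 25 of them lower nearshore (33.8%, against 13.5% of all titles) and 6 higher (8.11%, against 10.9% of all titles). The median log2 fold change was -0.29 over the members and -0.01 over all titles, and 48 members had lower and 26 higher nearshore means. The 7 falls did not hold up to the loss of some single animals: without OF3 or without OF4, 0 members passed in limma (16 lower and 0 higher at an unadjusted p under 0.05 in each fit), and without any 1 of the other 5 animals 3 to 5 did. Falls were lost over the whole table too: of all titles, 20 to 155 fell without 1 animal, against 231 with all. Without NM3, OF1 and OF3 together, which leaves 2 animals a site, 0 members and 0 of all titles passed in limma (19 members lower and 0 higher at an unadjusted p under 0.05), and the median over members was -0.34.

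**Figure D1:**
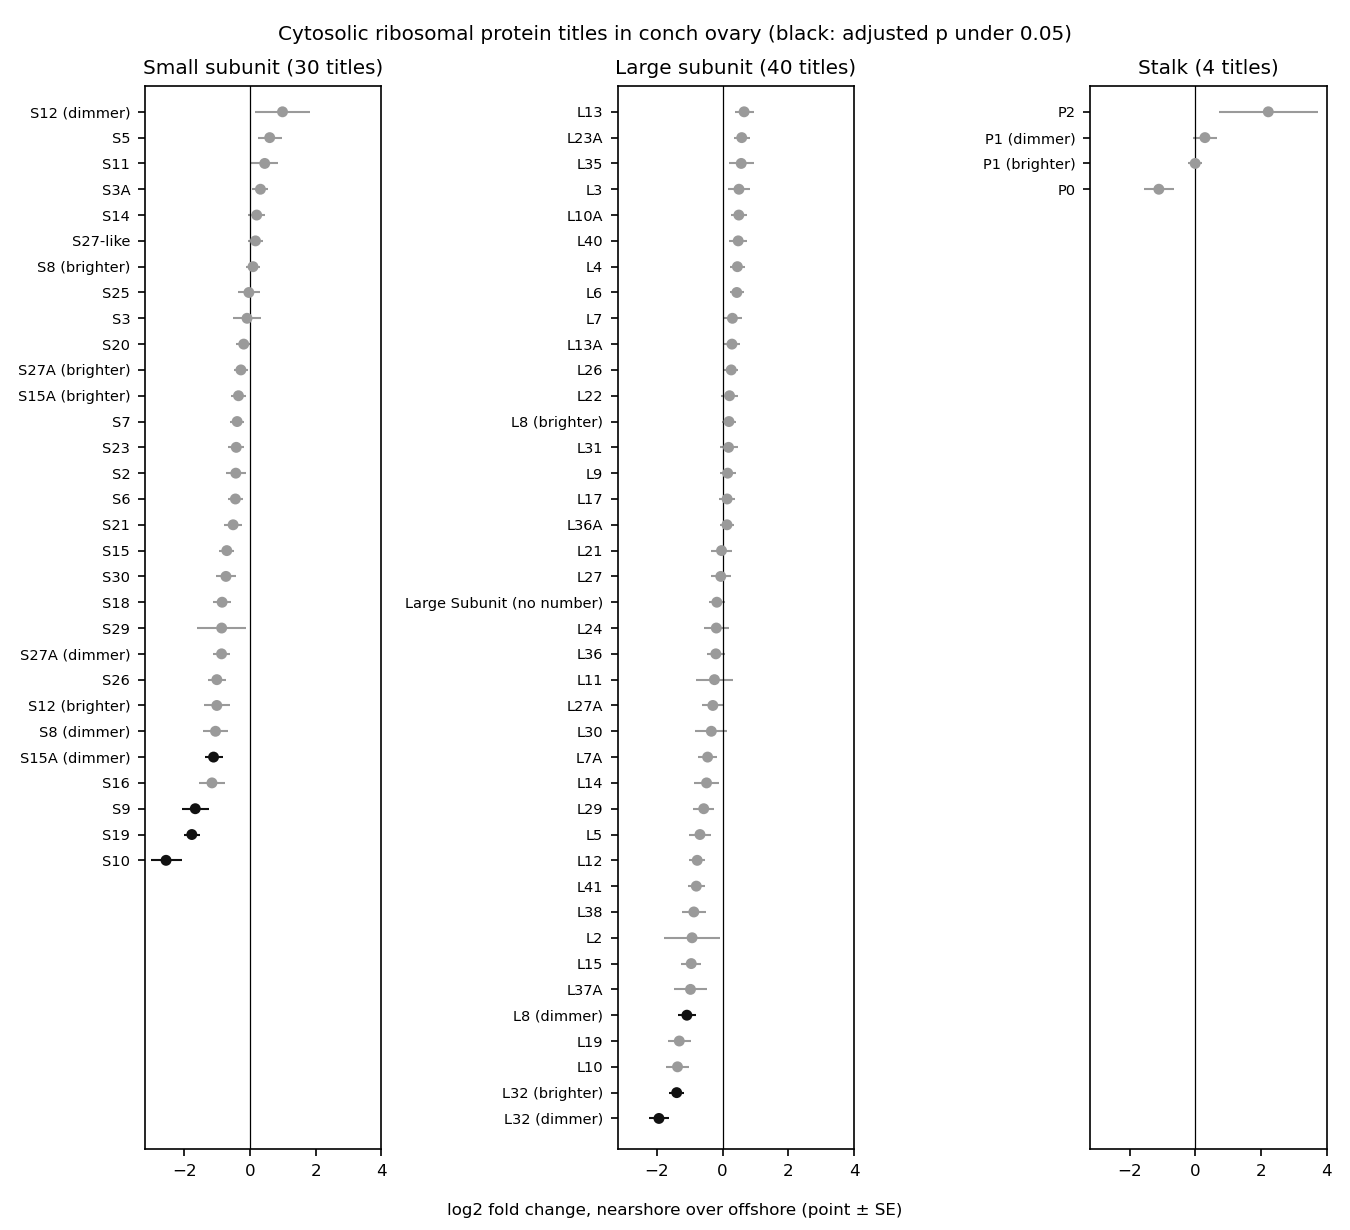
Log2 fold change, nearshore over offshore, of all 74 titles, in panels for the small subunit, the large subunit and the stalk, with bars for the standard error of the limma fit and black points for an adjusted p under 0.05. The small subunit titles run from -2.56 to 0.99 with 4 falls, and the large subunit titles from -1.94 to 0.65 with 3 falls.

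Among small subunit titles, 4 fell: S10, S19, S9 and 1 of the titles for S15A. S10 sits in the head of the small subunit near the path of the messenger RNA, and S19, also in the head, is needed in human cells for the maturation of the small subunit. Ribosomal Protein S10 was at 11.80, 12.44 and 10.65 in NF1, NF3 and NM3, against 14.02, 14.84, 14.18 and 13.70 in OF1 to OF4. All 3 nearshore animals lay below all 4 offshore animals, and the imposex animal was the lowest. The nearshore mean was 5.88-fold lower, a difference of -2.56 on the log2 scale (SE 0.47, adjusted p = 0.0235). Ribosomal Protein S19 was at 11.74, 11.81 and 11.98 in NF1, NF3 and NM3, and at 13.32, 13.96, 13.57 and 13.61 in OF1 to OF4. The nearshore animals lay close together, with an SD of 0.12 against 0.26 offshore, and the fold change was -1.77 on the log2 scale (SE 0.24, adjusted p = 0.0133). S10 passed in 3 of the 7 fits that left out 1 animal, and S19 in 5. With the pooled-variance model S10 did not pass (adjusted p = 0.0683).

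Ribosomal Protein S9, which lines the channel where messenger RNA enters, was dimmer, at 5.18, 4.94 and 6.29 in NF1, NF3 and NM3 and at 6.50, 7.29, 7.33 and 7.43 in OF1 to OF4. The difference between the sites was -1.67 (SE 0.40, limma adjusted p = 0.0471). NM3 and OF1 lay close together, and the call was kept in 1 of the 7 fits without 1 animal. It was also lost with median centring, cyclic loess normalization, a prior that depends on the mean and the pooled-variance model, with adjusted p-values of 0.054 to 0.104. The joined title Similar To KIAA0069 / Similar To Rps15a Protein / Similar To Ribosomal Protein S15a, for a protein of the small subunit body, was at 13.57, 13.15 and 13.80 in NF1, NF3 and NM3. In OF1 to OF4 it was at 14.20, 14.70, 14.77 and 14.79, which gave -1.11 (SE 0.27, adjusted p = 0.0481). That adjusted p lay just inside the threshold and the call was lost whichever animal was left out, and with quantile normalization, median centring, cyclic loess normalization and the pooled-variance model (adjusted p 0.0503 to 0.0705).

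The 3 large subunit titles that fell were both titles for L32 and 1 of the titles for L8. L32 is a protein of the large subunit without a bacterial counterpart, and L8 lies beside the peptidyl transferase centre. Ribosomal Protein L32 was at 9.16, 8.52 and 8.51 in NF1, NF3 and NM3, against 10.38, 11.05, 10.84 and 10.41 in OF1 to OF4 (-1.94, SE 0.29, adjusted p = 0.0173). Similar To 60S Ribosomal Protein L32 was at 13.42, 13.17 and 13.45 in NF1, NF3 and NM3, against 14.52, 14.85, 14.81 and 14.81, a change of -1.40 (SE 0.22, adjusted p = 0.0176). Both L32 titles separated the sites, and each passed in 5 of the 7 fits without 1 animal. The joined title 60S Ribosomal Protein L8 / Similar To Ribosomal Protein L8 / ENSANGP00000010416 was at 13.57, 14.10 and 13.81, against 14.46, 15.08, 15.06 and 15.05 (log2 fold change -1.09, SE 0.27, adjusted p = 0.0480). OF1 lay nearest to the nearshore animals there, and that title passed in 0 of those 7 fits, nor did it with quantile normalization, median centring or the pooled-variance model (adjusted p 0.0519 to 0.0679).

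**Figure D2:**
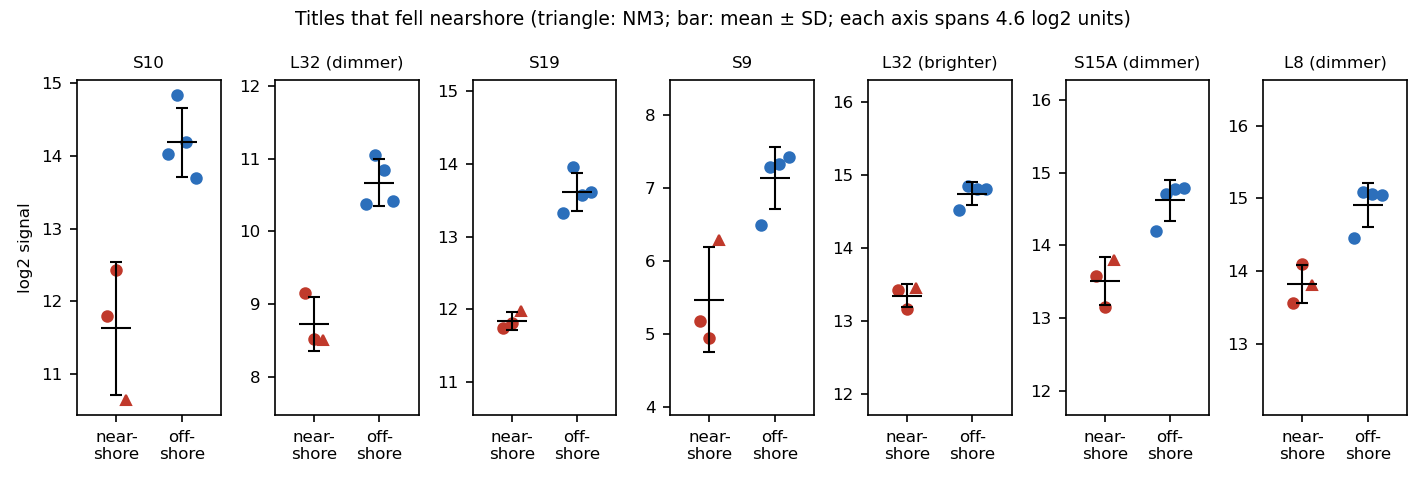
Log2 signal of each animal for the 7 titles that fell, nearshore left and offshore right in each panel, with the mean and SD of each site and a triangle for NM3. In each title the 3 nearshore animals lie below the 4 offshore animals, and NM3 is the lowest animal for S10 and the highest nearshore animal for S9 and S19.

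Other members had lower nearshore values without passing. Ribosomal Protein L10, which joins the large subunit late in its assembly, was at 14.05 and 14.35 in NF1 and NF3, against 15.19, 15.47, 16.09 and 15.55 in OF1 to OF4 (-1.37, SE 0.34, adjusted p = 0.0562), with NM3 lacking a value. L19, which forms a bridge to the small subunit, also lacked NM3 and had -1.32 (SE 0.35, adjusted p = 0.0675). S26, at the exit of the messenger RNA channel, had 14.73, 14.84 and 15.33 in NF1, NF3 and NM3, against 15.80, 15.71, 16.09 and 16.29 (-1.01, SE 0.27, adjusted p = 0.0608). These titles separated the sites in the same direction as the 7 falls. In all, 18 members were lower nearshore without overlap and did not pass, 11 of the small subunit, 6 of the large subunit and 1 of the stalk. One of the large subunit titles, L38, was very dim, at 1.18 to 1.28 nearshore and 1.33 to 2.92 offshore. S6, the classic target of the S6 kinase downstream of the growth sensor TOR, was among the 18, at 13.997, 13.94 and 14.09 in NF1, NF3 and NM3 and 14.19, 14.51, 14.59 and 14.52 in OF1 to OF4 (-0.44, SE 0.22, adjusted p = 0.251). S3, at the messenger RNA entry, had overlapping sites at 4.16 to 5.57 nearshore and 4.45 to 5.72 offshore (-0.09, SE 0.43).

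The 6 members with higher nearshore values and no overlap were 5 large subunit titles, L23A, L10A, L40, L4 and L6, and S3A of the small subunit. L4 lines the exit tunnel, and L23A sits at its mouth, where factors that guide the new chain bind. The title Ribosomal Protein L23a / Similar To 60S Ribosomal Protein L23a was at 16.50, 16.06 and 16.67 in NF1, NF3 and NM3, against 15.72, 15.94, 15.93 and 15.73 in OF1 to OF4 (0.58, SE 0.24, adjusted p = 0.180). L4 was at 16.81, 16.58 and 16.91, against 16.40, 16.33, 16.41 and 16.13 (0.45, SE 0.22, adjusted p = 0.247). These differences were small, between 0.32 and 0.58 over the 6 titles, and none passed. Ribosomal Protein L13 had the highest log2 fold change of any large subunit title, 0.65 (SE 0.29, adjusted p = 0.203). L3, which helps to shape the peptidyl transferase centre, was at 16.55 and 15.72 in NF1 and NF3 and at 15.36 to 15.80 offshore (0.50, SE 0.33, adjusted p = 0.410).

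The stalk titles differed among themselves. P0 anchors the stalk to the large subunit and carries dimers of P1 and P2, which recruit elongation factors. Ribosomal Protein, Large, P0 was at 14.28, 14.76 and 12.83 in NF1, NF3 and NM3, against 14.82, 15.27, 15.03 and 15.16 in OF1 to OF4 (-1.11, SE 0.45, adjusted p = 0.172). NM3 lay far below all other animals, and the fold change was -0.55 without it. Ribosomal Protein, Large, P1 was nearly level, at 16.14, 15.87 and 15.75 nearshore and 15.89 to 15.99 offshore (-0.005, SE 0.21). The joined title RIKEN CDNA 2600001A11 Gene / Ribosomal Protein, Large P2 varied most of all members, at 9.26, 5.21 and 11.38 in NF1, NF3 and NM3 and at 6.16, 8.86, 5.49 and 5.07 in OF1 to OF4. Its sites overlapped, and its fold change of 2.22 had an SE of 1.5 (adjusted p = 0.405). Leaving out 1 animal moved it between 0.84 (without NM3) and 3.92 (without NF3).

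L5 and L11 bind the small 5S ribosomal RNA, and in vertebrates they also hold back the p53 inhibitor Mdm2 when ribosome assembly stalls. L5 was at 13.86, 14.59 and 15.09 in NF1, NF3 and NM3, against 14.79, 15.40, 15.46 and 15.15 (-0.69, SE 0.35, adjusted p = 0.263). L11 was at 13.15, 13.97 and 14.53, against 14.69, 14.57, 14.56 and 12.72 (-0.25, SE 0.57, adjusted p = 0.836). The sites overlapped in both, in L11 through OF4. S27A and L40 are made as fusions with ubiquitin, which is cut off. Between the sites, Ribosomal Protein S27A differed by -0.865 (SE 0.26, adjusted p = 0.0846), and L40 had 0.47 (SE 0.28, adjusted p = 0.332), so these fusion partners lay on opposite sides of 0.

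The words of the rule missed 3 titles that also name a cytosolic ribosomal protein, and all 3 are left out of the counts above. Similar To Acidic P0 Ribosomal Protein was at 14.18, 14.63 and 13.02 in NF1, NF3 and NM3, against 14.68, 15.36, 14.85 and 14.97, close to the P0 title in every animal (-1.02, SE 0.41, adjusted p = 0.166). Ubiquitin A-52 Residue Ribosomal Protein Fusion Product 1, another name of L40, was at 17.09, 16.58 and 17.05, against 16.35, 15.81, 15.77 and 15.96 (0.93, SE 0.26, adjusted p = 0.0696). It lay higher nearshore without overlap, as L40 did. Ribosomal Protein, Acidic, which gives no number, had -1.41 (SE 0.43, adjusted p = 0.0892) with overlapping sites.

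The subunits were set side by side. Of 30 small subunit titles, 4 fell (13.3%, against 5.34% of all titles), 23 had a lower nearshore mean and 15 (50%, against 13.5%) were lower without overlap. Of 40 large subunit titles, 3 fell (7.5%), 23 had a lower nearshore mean and 9 (22.5%) were lower without overlap, while 5 (12.5%) were higher without overlap, close to the 10.9% of all titles. The medians were -0.44 over small and -0.18 over large subunit titles, against -0.01 over all titles. When 1 animal was left out, the large subunit median ran from -0.32 (without NM3) to -0.02 (without NF1), the small subunit median from -0.52 to -0.39 and the median of all members from -0.38 to -0.19 (without NF1). These are descriptions, and the difference between the subunits was not tested. Within the small subunit, 12 of 14 titles for proteins of the head and 11 of 16 for the body had lower nearshore means, against 50.6% of all titles. The medians were -0.78 and -0.42, with 2 falls each (14.3% and 12.5%, against 5.34% of all titles). In each part 50% of the titles were lower without overlap, against 13.5% of all titles, and the difference between head and body was not tested. Of 32 titles for proteins with a bacterial counterpart 3 fell (median -0.22), and of 41 counted as without one 4 fell (median -0.39), shares of 9.38% and 9.76%, against 5.34% of all titles, with 1 unnumbered title left out. The 41 include the dim title Ribosomal Protein L2 (-0.93), placed there by its name alone, so its place is uncertain.

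To see how values varied with signal, the 74 members were divided by their mean signal over all 7 animals into bands of 25, 24 and 25 titles, with limits at 14.02 and 15.36, a division made after the values were seen. That mean includes the nearshore values, so a lower nearshore value itself moves a title towards a lower band. S10, for example, had an offshore mean of 14.18 but a mean over all animals of 13.09. Part of any relation between band and fold change is therefore built in. In the low band 4 of 25 fell (16%, against 5.34% of all titles), 19 had lower nearshore means and the median was -0.77. In the middle band 3 of 24 fell (12.5%, against 5.34%), 21 had lower nearshore means and the median was -0.44. In the high band 0 of 25 fell, 17 had higher nearshore means and the median was 0.18, or 0.0499 with quantile normalization and 0.079 without NM3. In the large subunit 11 of 12 titles of the low band were lower nearshore and 13 of 15 of the high band were higher, with medians of -0.83 and 0.28. In the small subunit the medians were below 0 in each band, at -0.86, -0.44 and -0.28 from low to high signal, and 5 of 9 titles of the high band were lower.

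Other titles of the same bands were set beside the members, without a test of the difference. The medians of other titles were -0.01 over 4166 titles in the low band, 0.10 over 62 titles in the middle band and 0.12 over 26 titles in the high band. Of these other titles, 5.3% fell in the low band, 3.23% in the middle band and 3.85% in the high band. In the high band the other titles were much like the members. Higher nearshore means were found in 17 of 26 other titles and 17 of 25 members. Of the other titles 23.1% were higher without overlap, and of the members 24%. In the middle band 25 of 62 other titles had lower nearshore means, against 21 of 24 members. The low band is not matched on signal: its median mean signal was 10.56 over members and 4.95 over other titles. Across all 74 members Pearson's r between mean signal and log2 fold change was 0.04 and Spearman's rho 0.36, so the linear relation was near 0 over the whole range. Across the 56 members with a mean signal of 12 or more, a limit set after the values were seen, r was 0.67 and rho 0.68, and across the 306 other titles in that range they were 0.06 and 0.10. These correlations describe titles on the same 7 arrays, and titles are not independent replicates. The mean signal includes the nearshore values, so part of each correlation is built in, for members and other titles alike. The table does not show which spots were saturated.

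**Figure D3:**
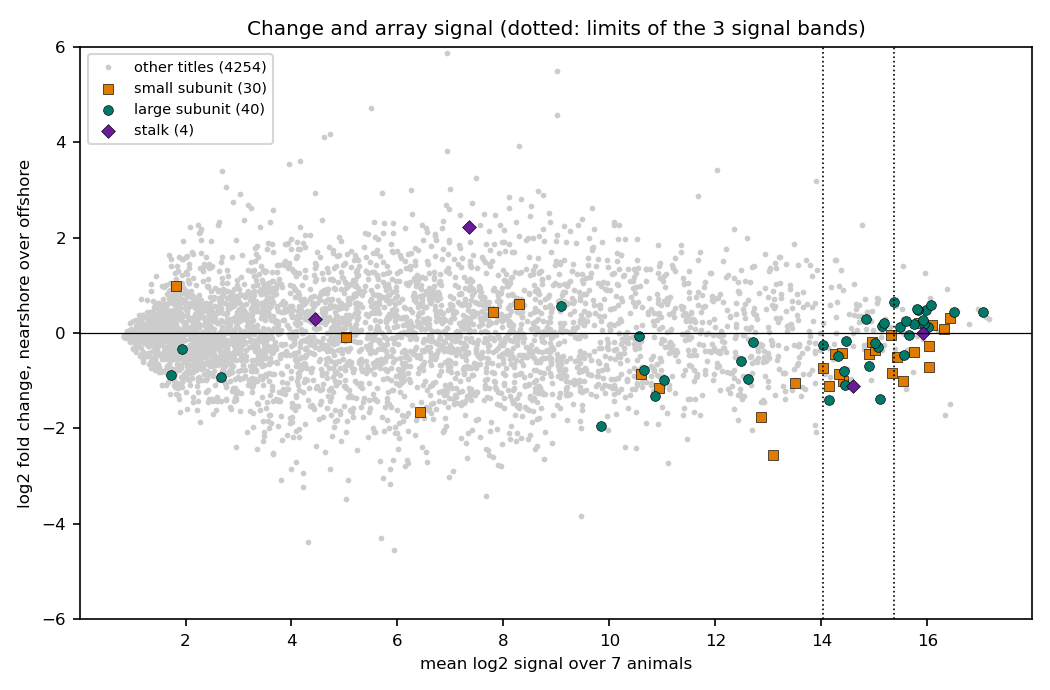
Log2 fold change, nearshore over offshore, against mean log2 signal over the 7 animals, with coloured points for the 74 members and grey points for 4254 other titles; dotted lines mark 14.02 and 15.36. Members below 15.36 lie mostly under 0, with medians of -0.77 and -0.44 in the lower bands, and those above it have a median of 0.18. The mean signal includes the nearshore values, so the axes are not independent.

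For 7 proteins 2 titles could be compared: L8, L32, P1, S8, S12, S15A and S27A. Whether such titles stand for 1 conch gene, for 2 genes or for different parts of 1 message is not known. For each pair the dimmer title minus the brighter one was compared between the sites with a two-sided exact permutation test, whose smallest p with 3 against 4 animals is 0.0286, and p-values were adjusted over the 7 pairs. L8, S8 and S15A reached that smallest p, with an adjusted p of 0.0667 each, so no pair passed. After adjustment over the 7 pairs, a pair at the smallest p could pass only if most of the other pairs reached it too. The adjusted test therefore could not decide whether any single pair differed between the sites.

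S8 is a protein of the small subunit body. Ribosomal Protein S8 was at 12.09, 13.09 and 13.50 in NF1, NF3 and NM3, against 13.67, 13.56, 14.31 and 14.23 in OF1 to OF4 (-1.05, SE 0.39, adjusted p = 0.143). Similar To Ribosomal Protein S8 was at 16.29, 16.35 and 16.45, against 16.37, 16.19, 16.28 and 16.24 (0.09, SE 0.20). The dimmer title lay lower nearshore in all 3 animals, while the sites overlapped in the brighter one. Dimmer minus brighter averaged -3.47 ± 0.64 nearshore (SD, n = 3) and -2.33 ± 0.39 offshore (SD, n = 4), a difference of -1.14 (exact p = 0.0286, adjusted p = 0.0667). That difference was -0.84 with quantile normalization (exact p = 0.114) and -0.78 without NF1 (exact p = 0.133). Without NF1 the smallest possible p is larger, so 0.133 cannot be set against 0.0286.

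L8 had the largest difference of the 3 pairs without overlap. The joined 60S title fell, as given above, whereas Ribosomal Protein L8 was at 15.66, 15.91 and 16.02 in NF1, NF3 and NM3, against 15.66, 15.64, 15.84 and 15.55 in OF1 to OF4 (0.19, SE 0.22). Dimmer minus brighter averaged -2.04 ± 0.21 nearshore (SD, n = 3) and -0.76 ± 0.31 offshore (SD, n = 4), a difference of -1.28 (exact p = 0.0286, adjusted p = 0.0667). For S15A both titles were lower nearshore without overlap, the dimmer by more. Similar To Ribosomal Protein S15a was at 15.03, 14.72 and 14.72, against 15.08, 15.22, 15.33 and 15.06 (-0.35, SE 0.22), and the difference between the S15A titles was -0.76 (exact p = 0.0286, adjusted p = 0.0667).

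In the other 4 pairs the difference between titles overlapped between the sites. The L32 titles, both of which fell, differed by -0.54 (exact p = 0.0857, adjusted p = 0.1). Similar To Ubiquitin And Ribosomal Protein S27a Precursor was at 15.92, 15.99 and 15.73, against 16.11, 16.14, 16.30 and 16.06 (-0.28, SE 0.21), and differed from Ribosomal Protein S27A by -0.59 (exact p = 0.0857, adjusted p = 0.1). For S12, in the head of the small subunit, the brighter title Similar To Ribosomal Protein S12 was at 14.42, 14.24 and 12.83, against 14.69, 14.85, 14.99 and 14.83 (-1.01, SE 0.40, adjusted p = 0.164), with NM3 far below the rest. The S12 titles differed by 2.001 (exact p = 0.0571, adjusted p = 0.0999). The dimmer title Ribosomal Protein S12 was between 1.03 and 2.13 in 6 animals and at 4.66 in NF3, so its log2 fold change of 0.99 (SE 0.85) rests on NF3 and was -0.15 without it. Acidic Ribosomal Protein P1a, at 3.77 to 5.17, was dim too, and its difference from the bright P1 title was 0.30 (exact p = 0.457, adjusted p = 0.457). In 5 of the 7 pairs the dimmer title was the one lowered more.

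**Figure D4:**
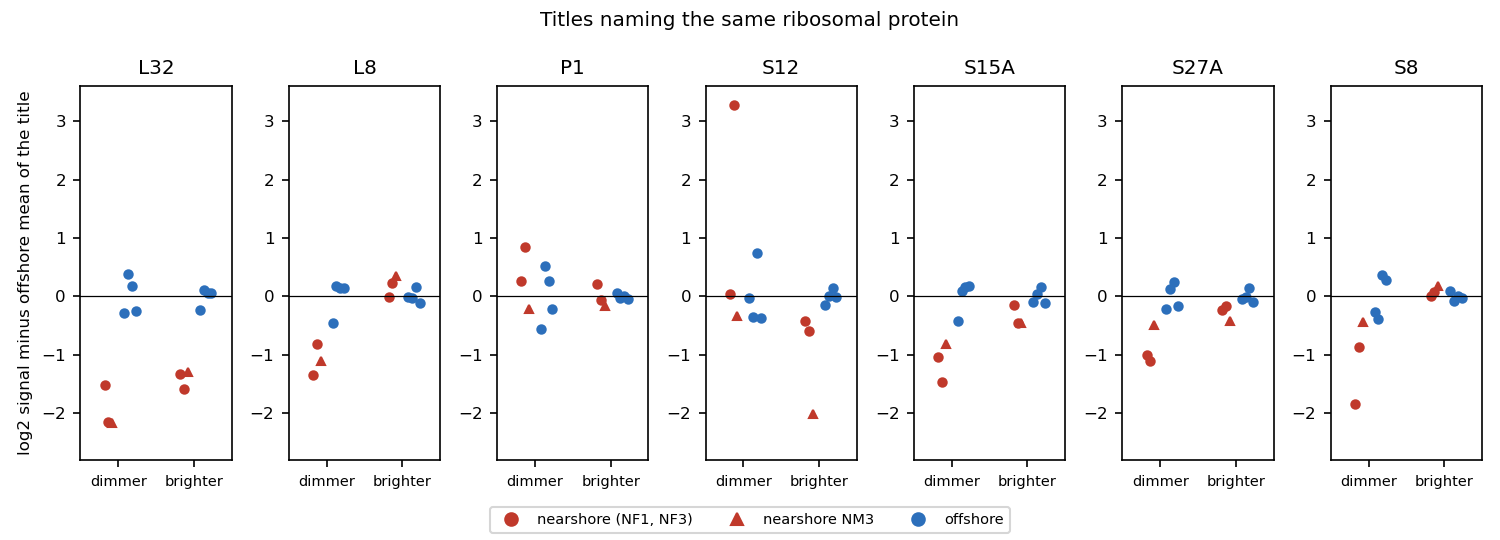
Log2 signal of each animal minus the offshore mean of the same title, for the dimmer and the brighter title of 7 proteins, with red for nearshore (triangle: NM3) and blue for offshore animals. For L8 and S8 the nearshore points of the dimmer title lie below 0 and those of the brighter title near 0, with differences of -1.28 and -1.14 between the titles.

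Taken by animal, the members set the nearshore animals apart from the offshore ones to different degrees. Relative to the offshore mean of each title, the median over members was -0.38, -0.33 and -0.16 in NF1, NF3 and NM3, against -0.18, 0.01, 0.15 and -0.03 in OF1 to OF4. NM3 thus lay inside the offshore range. Over small subunit titles the medians were -0.44, -0.48 and -0.40 in NF1, NF3 and NM3, all below the lowest offshore animal, OF1 at -0.17. Over large subunit titles they were -0.41, -0.15 and 0.17, against -0.18 to 0.17 offshore, with NF1 below that range and NM3 at its upper end. In NM3, which lacks 5 large subunit titles, the large subunit medians were -0.21, -0.05 and 0.49 in the low, middle and high signal bands. It is 1 animal, so its values were not tested against those of the other nearshore females.

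Single animals also differed in how often they held an extreme value. Among the 68 members with all 7 values, NM3 was the highest animal in 19 (27.9%, against 16.5% of all titles with 7 values) and NF3 in 3 (4.41%, against 16.7%). NF1 was the lowest animal most often, in 16 members (23.5%, against 17.7%), followed by NF3 in 14 (20.6%, against 11.3%), OF4 in 13 (19.1%, against 14.1%) and NM3 in 10 (14.7%, against 20.3%). Offshore, OF3 was the highest animal in 21 members (30.9%, against 8.7%) and OF1 in 1 (1.47%, against 8.84%). In the low signal band OF1 had a median of -0.37, next to NM3 at -0.39, with OF2 at 0.29 and OF3 at 0.21. The spread between animals was smaller in members than in the table as a whole, with a median SD of 0.33 nearshore and 0.22 offshore, against 0.54 and 0.44 over all titles, which are mostly dim. Titles of like signal mostly had like spread: in the middle band the median SD was 0.33 nearshore and 0.21 offshore for members, and 0.36 nearshore and 0.22 offshore for other titles. In the high band it was 0.27 nearshore for members and for other titles, and offshore 0.13 for members and 0.20 for other titles.

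**Figure D5:**
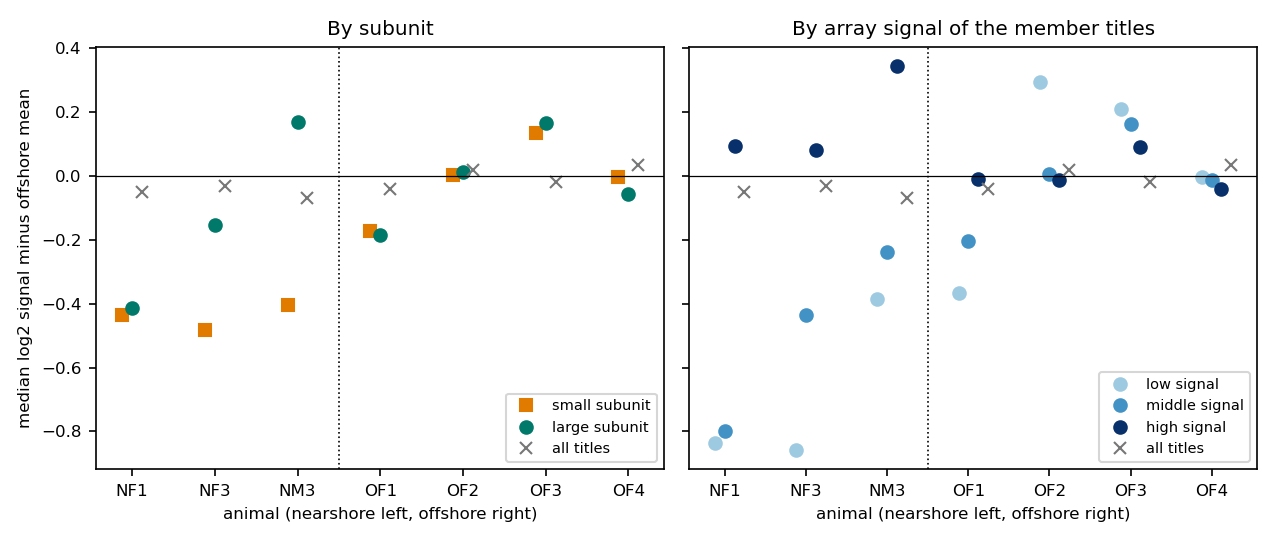
Median over titles of the log2 signal minus the offshore mean of the title, for each animal, with small subunit, large subunit and all titles on the left and the 3 signal bands of members on the right. Small subunit medians are -0.40 or lower in the 3 nearshore animals, and the high signal band stands at 0.34 in NM3.

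The rest of the translation machinery went several ways. Titles matched as mitochondrial ribosomal proteins, which build the separate ribosomes of mitochondria, had 9 falls (23.1%) and 2 rises among 39 titles, a median of -0.69, and 19 titles (48.7%) lower without overlap. The 39 include 30S Ribosomal Protein S13 and the 50S titles L18, L21 and L28, whose names do not say mitochondrial. These had offshore means of 0.94 to 2.68 and did not change. S34 of the mitochondrial small subunit had -1.94 (SE 0.24, adjusted p = 0.0108) and L12, of the stalk of that ribosome, -1.51 (SE 0.28, adjusted p = 0.0235). The number of changed titles was 1 without OF3 or OF4 and 2 to 5 without any 1 other animal, against 11 with all animals. Of 33 titles of translation initiation factors 3 fell and 2 rose (median 0.03). The largest change was a rise, Eukaryotic Translation Initiation Factor 1A, Y-linked at 3.43 (SE 0.39, limma adjusted p = 0.0128). Similar To Eukaryotic Translation Initiation Factor 3 Subunit 9 rose by 1.45 (SE 0.33, adjusted p = 0.0471), and NM3 lacked a value for both. Eukaryotic Translation Initiation Factor 5A, which helps stalled ribosomes to go on, had -1.74 (SE 0.35, adjusted p = 0.0301). The titles 5A-1 (-1.42) and 5A2 (0.26) had overlapping sites and did not pass. When 1 animal was left out, 0 to 3 titles of the initiation factor list changed. Of 14 titles of elongation and release factors 0 changed in limma (2, both lower, at an unadjusted p under 0.05, median 0.08), and of 27 titles of the nucleolus and ribosome assembly 0 changed (3 lower and 3 higher at an unadjusted p under 0.05, median -0.17). These lists were matched by words and are mixed. RAN Guanine Nucleotide Release Factor, not a translation factor by its name, is among the 14, and a 4E binding protein is among the initiation factors. Of 3 titles of regulators 0 changed in limma. Target Of Rapamycin was at 0.98 to 1.06 nearshore and 0.95 to 1.07 offshore, at the bottom of the scale. The others separated the sites in opposite directions. Poly(A) Binding Protein Interacting Protein 2 had -1.50 (SE 0.62, adjusted p = 0.179), and Poly(A) Binding Protein, Nuclear 1 had 0.995 (SE 0.32, adjusted p = 0.1002).

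Markers of tissues that an ovary sample can hold were set beside these results. Vitellogenin 2, the yolk precursor, was at 12.69, 17.03 and 16.35 in NF1, NF3 and NM3, against 17.34, 17.08, 16.81 and 17.06 in OF1 to OF4, and Piwi-like 1, a germ cell protein, at 11.55, 13.47 and 13.31, against 14.19, 15.06, 14.57 and 14.97. These were the ovary titles with lower nearshore means, with NF1 the lowest in Vitellogenin 2 and Piwi-like 1. Piwi-like 1 was lower without overlap (-1.92, SE 0.50, limma adjusted p = 0.058), and Vitellogenin 2 had overlapping sites (-1.71, SE 0.95, adjusted p = 0.310). The other 3 titles of the ovary and germ line list had higher nearshore means with overlapping sites: Bol, Boule-like, named for a germ cell RNA-binding protein, by 1.34 (SE 0.39, adjusted p = 0.0804), and the titles with zona pellucida in their names by 1.29 and 1.13. Of the 5 titles of the ovary and germ line list 0 changed in limma, with 1 lower and 2 higher at an unadjusted p under 0.05. Of 17 titles matched by muscle words 3 rose and 0 fell, with medians by animal relative to the offshore mean of 0.34 to 0.39 nearshore and -0.43 to 0.25 offshore. The list is not muscle alone: 1 of the 3 rises was Myosin, Heavy Polypeptide 9, Non-muscle, beside Tropomyosin 1 and a myosin light chain title, and Myosin IXb and Myosin VIa are in it too. Of 14 matrix titles 3 rose and 0 fell, with medians of 0.30 to 1.08 nearshore and -0.32 to 0.51 offshore. Titles matched by haemocyte words had 1 rise and 1 fall among 11. Those matched by digestive gland words had 2 rises and 2 falls among 29, apart from the split of animals within both sites given above. These lists are mixed too: plectin titles are in the haemocyte list and titles for a collagen binding protein in the matrix list. The digestive gland list holds phospholipases, of which Phospholipase C, Beta 4 rose (2.24) and Phospholipase D2 fell (-1.87). Its other rise and fall were Carboxypeptidase A1 and Serine Carboxypeptidase 1. The part of the tissues in the lower ribosomal protein values was not tested.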

How the data were processed

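The authors deposited 1 table of log2 signals, with 1 value per gene title and array. Agilent Feature Extraction is named in the submitters' processing notes. Its version, the background treatment, the normalization and how probes were condensed to titles were not stated in the labels or the table. No log base is named: the values run between 0.27 and 17.53, and base 2 was assumed. All 7 arrays were used, no column of values was left out, and 4275 titles had 7 values. The number of arrays limits the precision.

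The fit used limma 3.58.1 under R 4.3.3 (lmFit, then eBayes) with site as the only term, nearshore minus offshore, on all 4328 titles and without a filter on dim ones. Adjusted p-values are Benjamini-Hochberg values over that whole table, and "rose" and "fell" mean an adjusted p under 0.05. SE is the moderated standard error. Titles naming the same protein were compared with an exact permutation test. Lists were matched on words of the titles. The members and lists were chosen with earlier results of these data known. Named titles are those that changed, those sharing a protein name, the 3 highest and 3 lowest fold changes, and P0, P1, P2, SA, S3, S6, S27A, L3, L5, L10, L11 and L40 where present. Any other title was chosen after its values were seen. The tests were checked on simulated data. Alternatives covered normalization, filters, array weights, variance models, the threshold, the choice of members and leaving out each animal.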

Additional observations from a re-analysis of the deposited data

Results flagged for a closer look

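An outlier limit was used that flags about 1 in 20 sets of 4 independent normal values. By it, 1 offshore animal stood far from the other 3 in 6 of the 73 members with 4 offshore values. OF1 was the low animal in 4 of them, all titles that fell: 14.46 against 15.05 to 15.08 in the joined 60S title for L8, 6.50 against 7.29 to 7.43 in Ribosomal Protein S9, 14.52 against 14.81 to 14.85 in Similar To 60S Ribosomal Protein L32, and 14.20 against 14.70 to 14.79 in the joined title for S15A. In each of them OF1 lay between the other offshore animals and the nearshore ones. OF4 was low in Ribosomal Protein L11, at 12.72 against 14.56 to 14.69. OF3 was high in the joined title for L7, at 14.97 against 14.65 to 14.68. The share flagged over all titles was not counted, and members measured in the same animals are not independent. Whether 6 of 73 is more than in other titles is therefore not known.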

How the results depend on the processing

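Across 50 results and 701 values under alternatives, 598 kept their direction and their side of the threshold or moved little, 42 lost and 3 gained the threshold, 47 moved and 11 changed sign. With 3 against 4 animals, calls turn on single animals. Members that fell numbered 0 to 5 when 1 animal was left out, against 7 with all. Over all titles, 20 to 155 then fell and 14 to 147 rose. The number of changed mitochondrial ribosomal protein titles was then 1 to 5 and of initiation factors 0 to 3. Members that fell numbered 4 with median centring, 3 with the ordinary pooled-variance model, 12 at an adjusted p under 0.10, 4 with titles of 1 protein averaged and 4 without joined and Similar To titles; members that rose stayed at 0 under each alternative run. The pooled-variance model gave 82 falls and 61 rises over all titles, and an adjusted p under 0.10 gave 375 and 284. Without NM3, OF1 and OF3 together, chosen after seeing the data, 0 members and 0 of all titles fell, 0 of all titles rose, and the small subunit median was -0.57. With titles that had 7 values, 3 initiation factors changed. The median of the high signal band, which was chosen after seeing the data, was 0.0499 with quantile normalization.

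Some values changed sign, among them Ribosomal Protein S12 at 0.99. Similar To Ribosomal Protein S8 had -0.16 with quantile normalization, and Ribosomal Protein, Large, P1 had 0.0063 with cyclic loess and 0.016 with array weights. When 1 animal was left out, P1 ran from -0.11 to 0.079, L11 from -0.72 to 0.12, S12 from -0.15 to 1.65, S3 from -0.39 to 0.32, and the difference between the P1 titles from -0.0017 to 0.48. The cause of these shifts was not tested beyond what fewer animals or titles explain by construction. No paired analysis was possible because the animals are separate wild conchs with no pairing between sites.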
